A study of Mus musculus with 12 samples.

Results

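The genes described here are 10 components of bone morphogenetic protein (BMP) signalling in mouse embryonic stem cells: the targets Id1, Id2, Id3 and Id4, the inhibitory Smads Smad6 and Smad7, the ligand Bmp4, the receptor Bmpr1a, the decoy receptor Bambi and the secreted antagonist Grem1. They were taken as a named list and found by Ensembl ID through GENCODE M21, 10 of 43346 genes in the deposited table, and all 10 passed the filter on low counts that left 17148 genes. RNA was sequenced in 12 libraries, 3 from each of 4 groups. B6 stands for the parental strain C57BL/6J and D2 for the parental strain DBA/2J; the congenic groups are B6.D2-(rs30079041-rs51756099)/Bakr (B6-13D2), with D2 alleles in a segment of chromosome 13 on the B6 background, and D2.B6-(rs29224292-rs13469455)/Bakr (D2-13B6), with B6 alleles there on the D2 background. The series text names rs51756099 as the end of the second segment instead.

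The 4 groups shared their culture medium, which held serum, LIF and inhibitors of MEK (PD0325901) and of GSK3 (CHIR99021). The labels' protocol describes independent cultures of a single line per strain, which makes a difference between strains inseparable from a difference between lines; the titles call the samples technical replicates and give B6 replicate 3 another line name than B6 replicates 1 and 2. For D2 the line name in the titles differs from that in the cell line field. P-values therefore measure the spread between these cultures.

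BMP ligands bind pairs of type I and type II receptor kinases, which phosphorylate Smad proteins that enter the nucleus with Smad4 and switch on target genes. Id genes are among the most direct of these targets, and their products are helix-loop-helix proteins without a DNA-binding region that hold E proteins away from DNA. In mouse embryonic stem cell culture, BMP or serum acting through Id proteins is known to hold back neural differentiation while LIF is present. Smad6 and Smad7 are themselves induced by the signal and inhibit it, and Grem1 binds BMP ligands outside the cell.

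Levels are given in CPM, that is, counts scaled to a common library total after TMM, a normalization that assumes most genes do not differ. Libraries held 22184196 to 36411799 expected counts. A gene is said to be called where the adjusted p of edgeR's quasi-likelihood test was under 0.05.

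The cultures carried a strong fibroblast-type signal that differed between groups, and this is given before the results because several of the 10 genes moved with it. All 16 of 16 listed fibroblast or feeder markers were detected in every group, and none was at 0. Their summed level lay between 12760 and 13740 CPM in B6 and between 19240 and 22670 CPM in D2, but between 4163 and 4256 CPM in the B6-13D2 line and between 10500 and 10870 CPM in the D2-13B6 line. Only in B6-13D2 were any of them under 1 CPM, 2 of 16 by group mean. Col1a1, the main fibrillar collagen chain, had 6428 CPM ± 348 (SD, n = 3) in B6, 10480 ± 925 in D2, then 2093 ± 37.5 in the B6-13D2 line and 5227 ± 99.3 in the D2-13B6 line. The 12 embryonic stem cell markers were all detected, with their highest sum in B6-13D2 and their lowest in D2, and with sums between 5704 and 6019 CPM in B6, 4029 and 4116 CPM in D2, 6599 and 6876 CPM in the B6-13D2 line, and 4916 and 4967 CPM in the D2-13B6 line. Pou5f1, the core pluripotency factor, had 691.7 CPM ± 54.5, 531.7 ± 11.6, 766.6 ± 26.9 and 618.6 ± 6.63 in the same order. In bulk RNA, fewer cells of a type and less RNA per cell cannot be told apart. The part of the fibroblast signal in the results was not tested.

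Bmp4, the ligand, was highest in D2, lower in B6, lower again in D2-13B6 and lowest in B6-13D2. Its level was 22.8, 21.1 and 19.3 CPM in B6, 41.6, 40.2 and 41.6 in D2, then 6.92, 5.70 and 5.51 in the B6-13D2 line and 16.5, 17.1 and 17.3 in the D2-13B6 line. The 4 groups did not overlap, and the group means spanned 6.81-fold. D2 exceeded B6 by a log2 fold change of 0.96 (SE 0.066, adjusted p 1e-09). B6-13D2 was lower than B6 by -1.80 (SE 0.083) and D2-13B6 lower than D2 by -1.28 (SE 0.064) on the log2 scale, with adjusted p of 2.83e-12 and 1.78e-11. The congenic lines also differed from each other, with 1.48 (SE 0.082) in D2-13B6 versus B6-13D2.

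Grem1, the secreted antagonist, had the same order of groups and the widest range of the 10 genes, 7.20-fold between the highest and the lowest group mean. It had 196.7, 198.4 and 180.4 CPM in the 3 B6 libraries and 327.2, 336.6 and 307.3 in D2. In B6-13D2 it had 42.5, 45.6 and 46.7 CPM, and in D2-13B6 125.1, 121.4 and 123 CPM. Every D2 library was above every other library, every B6-13D2 library was below, and no 2 groups overlapped. The log2 fold change was 0.76 (SE 0.044) in D2 versus B6, with an adjusted p of 1.25e-10 by edgeR. It was -2.09 (SE 0.049) in B6-13D2 versus B6 and -1.40 (SE 0.044) in D2-13B6 versus D2, with adjusted p of 4.57e-16 and 8.42e-14.

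Promoter sequences are shown for Grem1 and Bmp4, which moved together, and for Smad6, which did not move with them. They are the 250 bases before the transcript start in RefSeq's GRCm38.p6 table, that is, of the C57BL/6J reference and not of the D2 allele, 5′ to 3′ on the gene's strand; capitals mark GGCGCC, a GC-rich element known from Smad-responsive promoters, or CACGTG, an E-box. Of the 10 genes, 7 were matched, and Id1 was not.
Grem1 promoter (chr2:113758649-113758898, minus strand): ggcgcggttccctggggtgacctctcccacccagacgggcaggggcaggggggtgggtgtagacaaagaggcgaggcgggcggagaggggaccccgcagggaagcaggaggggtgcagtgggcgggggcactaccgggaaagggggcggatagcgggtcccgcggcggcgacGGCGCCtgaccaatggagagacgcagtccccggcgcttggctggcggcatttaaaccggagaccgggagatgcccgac
Bmp4 promoter (chr14:46390670-46390919, minus strand): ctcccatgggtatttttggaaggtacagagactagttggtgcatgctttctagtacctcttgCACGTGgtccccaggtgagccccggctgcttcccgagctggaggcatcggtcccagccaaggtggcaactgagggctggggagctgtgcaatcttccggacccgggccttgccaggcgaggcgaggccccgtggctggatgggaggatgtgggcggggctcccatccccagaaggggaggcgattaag
Smad6 promoter (chr9:64022060-64022309, minus strand): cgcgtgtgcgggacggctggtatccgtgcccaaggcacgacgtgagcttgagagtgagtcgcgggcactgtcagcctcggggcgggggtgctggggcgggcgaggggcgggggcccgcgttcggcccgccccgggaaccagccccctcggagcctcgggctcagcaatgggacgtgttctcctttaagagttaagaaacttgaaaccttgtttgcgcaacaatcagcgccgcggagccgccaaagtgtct
On the window of Grem1, GGCGCC began 78 bases before the start, and on that of Bmp4, CACGTG began 188 bases before it. Of 32851 promoters searched over the same length, 9.59% held GGCGCC and 6.02% CACGTG (both read the same on either strand). The general E-box CANNTG, which includes CACGTG, was found at 3 places for Bmp4 and in 66.2% of promoters. CAGACA, a Smad box sought on both strands, is held by 17.1% of promoters and was in none of these 3 windows, and the Smad6 window held none of the 4 motifs. The GC share was 72.0% for Grem1, 63.2% for Bmp4 and 66.8% for Smad6. GGCGCC was also found for Id2, Id4 and Bmpr1a, and none of the 4 motifs for Id3.

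Bmpr1a, the main type I receptor for Bmp4, varied least after Id2, by 1.37-fold. It had 99.9, 103.9 and 102.2 CPM in B6, 112.8, 112.5 and 111.6 in D2, then 85.8, 79.6 and 81.2 in the B6-13D2 line and 103, 99.1 and 105.5 in the D2-13B6 line. D2 was highest, B6-13D2 lowest, and B6 and D2-13B6 overlapped between them with 0.01 (SE 0.037, adjusted p 0.883). The log2 fold change was 0.14 (SE 0.038) in D2 versus B6, -0.31 (SE 0.038) in B6-13D2 versus B6 and -0.13 (SE 0.037) in D2-13B6 versus D2, with adjusted p of 0.00402, 1.44e-06 and 0.00531. Its counts were not whole, by more than 1e-06, in 10 of the libraries, which is how reads divided with other loci appear in this table, and they lay up to 0.412 from a whole number. Bmpr1a, Bmp4 and Id4 overlap genes on the other strand, and those of them in the table had at most 20 counts in a library.

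Bambi, a pseudoreceptor that blocks ligand signalling, was lowest in B6-13D2. It had 16.0, 14.7 and 16.6 CPM in B6, 14.6, 15.3 and 16.3 in D2, then 11.2, 10.2 and 9.55 in the B6-13D2 line and 14.3, 14.5 and 13.8 in the D2-13B6 line. B6-13D2 was below every other library and was called against each other group, with -0.61 (SE 0.075, adjusted p 1.65e-06) against B6. The other pairs were not called; D2-13B6 versus B6 gave -0.15 (SE 0.071, adjusted p 0.0832), and without B6 replicate 2 it was -0.20 and called (0.0384).

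Id1, the classical immediate target of BMP signalling, followed the same order as its ligand. The libraries had 22.3, 22.8 and 22.7 CPM in B6, 44.9, 43.6 and 38.0 in D2, then 7.03, 7.08 and 7.21 in the B6-13D2 line and 12.1, 12.9 and 12.3 in the D2-13B6 line. No groups overlapped, and the D2 mean was 5.93 times that of B6-13D2. Its log2 fold change was 0.90 (SE 0.06) in D2 versus B6, -1.67 (SE 0.074) in B6-13D2 versus B6 and -1.76 (SE 0.062) in D2-13B6 versus D2; adjusted p were 7.58e-10, 1.58e-12 and 2.43e-13.

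Id3, the Id gene with the highest level per length, was low in both congenic lines. It had 110.1, 103 and 122.8 CPM in B6, 133.2, 129.6 and 107.7 in D2, then 31.9, 36.0 and 31.2 in the B6-13D2 line and 56.3, 54.9 and 54.6 in the D2-13B6 line. The parental groups overlapped, while both congenic groups lay below them and apart from each other. B6-13D2 was lower than B6 by -1.76 (SE 0.078) and D2-13B6 lower than D2 by -1.16 (SE 0.073) on the log2 scale, with adjusted p of 1.74e-12 and 2.7e-10. D2 versus B6 gave 0.14 (SE 0.071, adjusted p 0.0883), not called, but with RLE size factors it was 0.20 with an adjusted p of 0.0246, without D2 replicate 3 0.23 with 0.00268 and without B6 replicate 3 0.21 with 0.0183. Over all single libraries left out it ranged from 0.09 to 0.23.

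Id2, which also binds E proteins, had the smallest range of the 10 genes in CPM, 1.30-fold. It had 24.8, 27.5 and 28.3 CPM in B6, 20.8, 22.4 and 23.9 in D2, then 27.4, 30.6 and 29.3 in the B6-13D2 line and 21.5, 22.8 and 23.0 in the D2-13B6 line. Its levels split by background: both lines on the B6 background were above both on the D2 background, and the lines of 1 background overlapped. D2 was lower than B6 by -0.27 (SE 0.067, adjusted p 0.00232) and D2-13B6 lower than B6-13D2 by -0.38 (SE 0.063, adjusted p 3.78e-05). Neither congenic line was called against the parental strain of its background, with 0.12 (SE 0.064) and 0.01 (SE 0.065), although the first was called with RLE size factors at 0.18 (adjusted p 0.0228).

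Id4 was the only one of the 10 genes on chromosome 13 (GRCm38, 48261228 to 48266026); the labels give the ends of the segment as marker names without positions, so whether Id4 lies inside it was not settled. It had 8.30, 9.40 and 9.35 CPM in B6, 10.8, 9.29 and 8.97 in D2, then 6.02, 8.39 and 8.27 in the B6-13D2 line and 5.92, 5.76 and 6.09 in the D2-13B6 line. D2-13B6 lay below every library of the parental groups, and the parental groups overlapped. It fell by 0.71 (SE 0.114) on the log2 scale in D2-13B6 versus D2, with an adjusted p of 3.67e-05, and was not called in B6-13D2 versus B6 at -0.26 (SE 0.116, adjusted p 0.0669). When single libraries were left out, that difference ranged from -0.34 to -0.11 and was smallest without B6-13D2 replicate 1, the lowest of its group. Leaving out B6-13D2 replicate 2 or 3 brought its adjusted p to 0.0333 or 0.0476. The call between the congenic lines, -0.35 with 0.012, was lost without B6-13D2 replicate 2 (-0.27, adjusted p 0.0711) or 3 (-0.29, adjusted p 0.0573). The call in B6-13D2 versus D2, -0.36 with an adjusted p of 0.0084, was lost when 1 library was left out. It was -0.26 without D2 replicate 1 (adjusted p 0.0621) and -0.21 without B6-13D2 replicate 1 (0.0649).

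Smad6, an inhibitory Smad that acts mainly on the BMP arm, was called in both congenic comparisons, each time with the sign of the chromosome 13 segment allele. It had 12.4, 12.5 and 11.4 CPM in B6, 20.2, 18.9 and 15.8 in D2, then 16.8, 17.2 and 17.9 in the B6-13D2 line and 14.2, 14.9 and 14.5 in the D2-13B6 line. B6 was below all other libraries, D2-13B6 came next without overlap, and the groups with the D2 segment overlapped at the top. With the D2 segment it rose on the B6 background by 0.51 (SE 0.081, adjusted p 2.93e-05), and with the B6 segment it fell on the D2 background by 0.34 on the log2 scale (SE 0.076, adjusted p 0.000962). Lines sharing the D2 segment differed by -0.09 (SE 0.076, adjusted p 0.308), which was -0.17 and called (adjusted p 0.0238) without D2 replicate 3. Over all single libraries left out, that difference ranged from -0.17 to -7e-04. Lines sharing the B6 segment differed by 0.26 (SE 0.081, adjusted p 0.00977), no longer called without B6 replicate 3 (0.0546). Over all genes, 7.33% were called in both congenic comparisons with the sign of the segment allele, and of the 10 genes 1 was, which is near that share. Smad6 lies on chromosome 9 (GRCm38, 63953076 to 64022059), outside the segment.

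Smad7, an inhibitory Smad of both the BMP and TGF-beta arms, was highest in B6, where Smad6 was lowest. The libraries had 203.6, 187.8 and 186 CPM in B6, 169.5, 166.3 and 145.4 in D2, then 127.7, 136.6 and 125.9 in the B6-13D2 line and 110.1, 105.5 and 110.6 in the D2-13B6 line. No groups overlapped, and both congenic lines were below both parental strains. The drop in the congenic lines was of like size on either background, -0.56 (SE 0.053, adjusted p 4.59e-08) in B6-13D2 versus B6 and -0.56 (SE 0.053, adjusted p 5.63e-08) in D2-13B6 versus D2. D2 was lower than B6 by -0.26 (SE 0.052, adjusted p 0.000336).

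**Figure D1:**
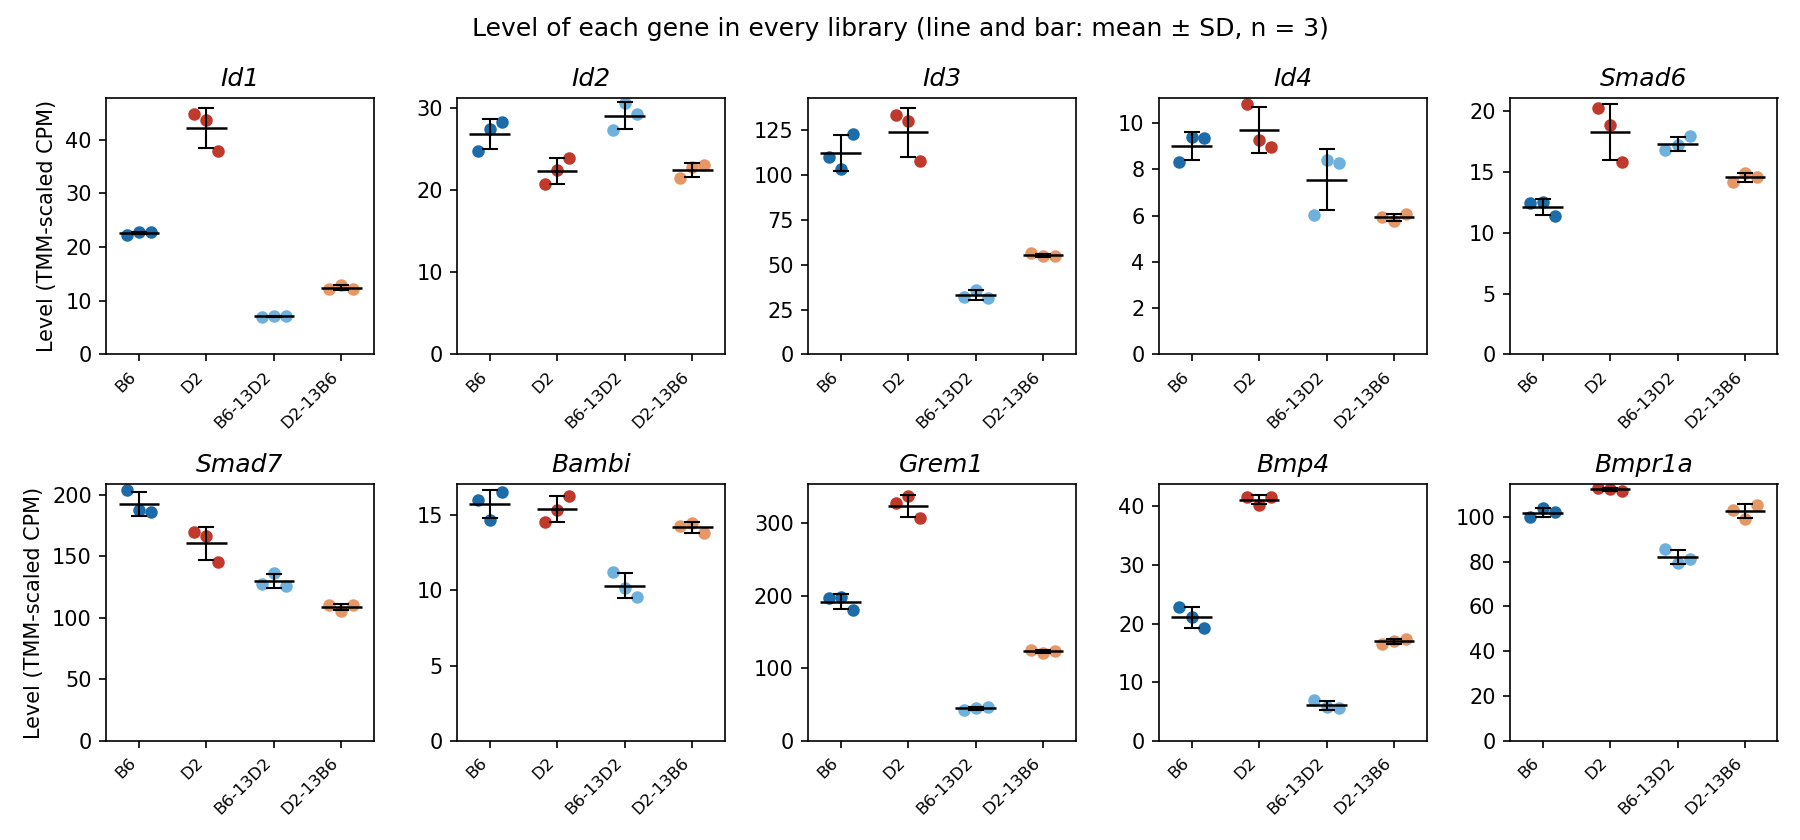
Level of the 10 genes in TMM-scaled CPM (vertical axes start at 0) in the 3 libraries of each group; points are libraries, horizontal lines the mean and bars the SD (n = 3). Id1, Bmp4 and Grem1 are highest in D2 and lowest in B6-13D2, Id3 is low in both congenic lines, Smad6 is lowest in B6 and Smad7 is highest in B6.

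Per length, as mean CPM per kilobase of annotated exon, the leading gene changed between groups. In B6 the order began with Id3 at 62.5 ± 5.61 (SD, n = 3), Grem1 at 46.2 ± 2.39 and Smad7 at 42.6 ± 2.13. In D2 Grem1 led with 78.0 ± 3.61, ahead of Id3 with 68.9 ± 7.71. In B6-13D2 Smad7 led with 28.8 ± 1.27, Id3 had 18.4 ± 1.44, and Grem1 fell behind Bmpr1a, at 10.8 ± 0.526 against 12.9 ± 0.504. In D2-13B6, Id3 at 30.9 ± 0.498 and Grem1 at 29.7 ± 0.442 were first. Id4 was the lowest of the 10 in each group, between 1.54 and 2.52.

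Most of the 17148 genes tested were called in each comparison, so a call alone does not set a gene apart. D2 versus B6 called 7 of the 10 genes beside 60.0% of all genes, with 5 higher in D2 (29.8% of all) and 2 lower (30.3%). B6-13D2 versus B6 called 8 of 10 beside 58.3%, with 1 higher (25.4%) and 7 lower (32.9%). D2-13B6 versus D2 called 8 of 10 beside 57.3%, with 0 higher (27.6%) and 8 lower (29.7%). B6-13D2 versus D2 called 9 beside 74.6%, with 1 higher (36.7%) and 8 lower (38.0%). D2-13B6 versus B6 called 8 beside 59.0%, with 1 higher (24.5%) and 7 lower (34.6%). The congenic lines compared with each other called 10 of 10 beside 70.2%, with 6 higher in D2-13B6 (38.4%) and 4 lower (31.8%).

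Direction was less even than the number of calls. Id1, Id3, Smad7, Bmp4, Bmpr1a and Grem1, 6 of 10, were called lower in both congenic lines than in the parental strain of their background, which held for 19.8% of all genes (18.4% with RLE size factors). Calls of the same sign in both comparisons, either way, were found for the same 6 genes and for 32.2% of all. The median log2 fold change of the 10 genes was -0.59 in B6-13D2 versus B6 and -0.64 in D2-13B6 versus D2, where the medians over the whole table were -0.04 and 0. Levels did not overlap between D2 and B6 for 7 of 10 genes (62.0% of all), between B6-13D2 and B6 for 8 (63.2%) and between D2-13B6 and D2 for 9 (62.9%). They did not overlap for 9 genes in each of the other pairs, B6-13D2 and D2 (75.5%), D2-13B6 and B6 (65.2%) and the 2 congenic lines (75.0%).

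**Figure D2:**
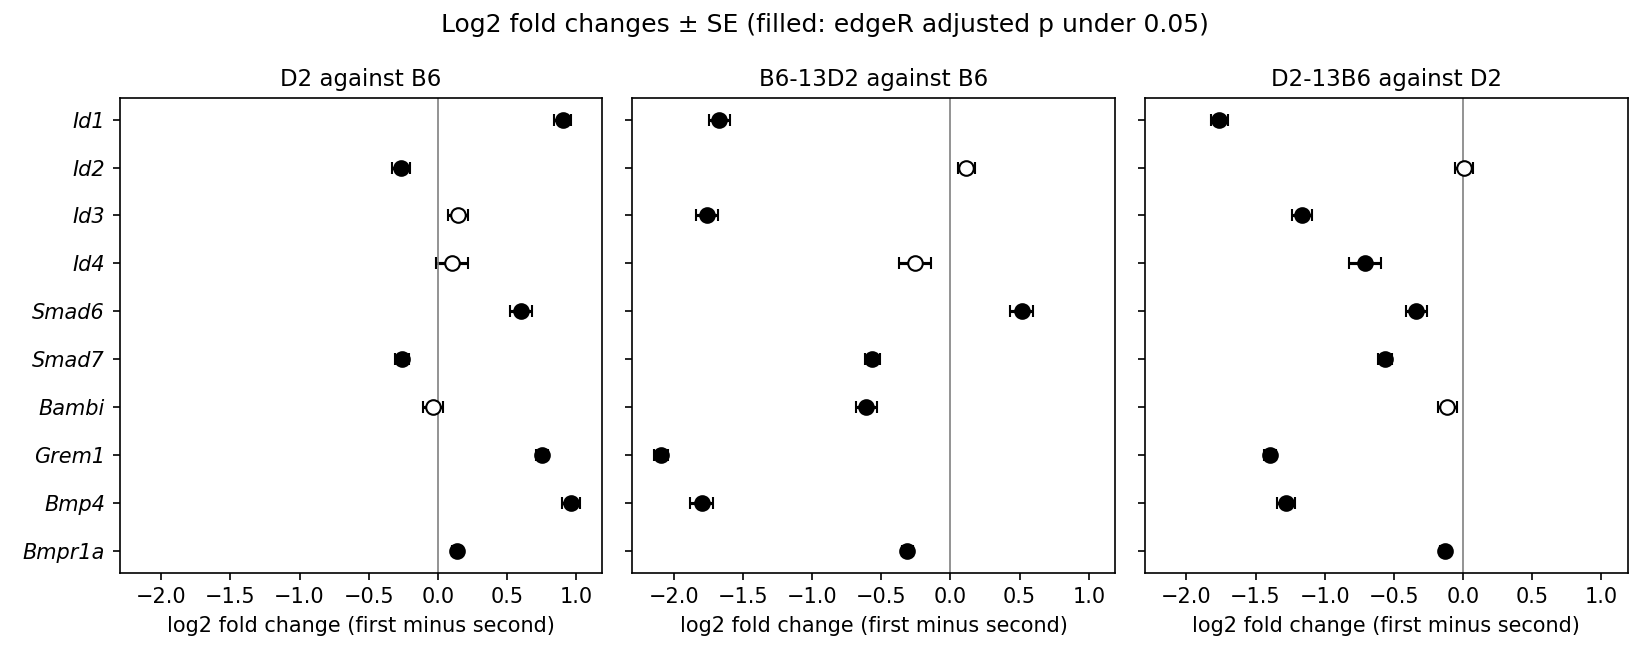
Log2 fold changes with standard errors of the 10 genes in 3 comparisons, first group minus second; filled points are called (adjusted p under 0.05). In B6-13D2 versus B6 Smad6 is the called gene above 0, at 0.51, and Grem1 the lowest at -2.09, and in D2-13B6 versus D2 all called genes are below 0.

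Whether the D2 allele of the segment, compared with the B6 allele, had another effect on one background than on the other was tested as both congenic lines minus both parental strains. This is the sum of the 2 exchange effects, so it is far from 0 where both exchanges of the segment moved a gene the same way. Whatever else is common to the congenic libraries enters that difference, and only their columns carry a shared prefix. It called 8 of 10 genes beside 64.5% of all, with 0 higher (31.1%) and 8 lower in the congenic lines (33.4%); Id2 and Smad6 were not called, with 0.12 (SE 0.092) and 0.18 (SE 0.111) and adjusted p of 0.261 and 0.173. Without D2 replicate 1, Smad6 was called at 0.28 (adjusted p 0.032), and over all single libraries left out it ranged from 0.09 to 0.28.

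Set beside the markers, the mean levels of Grem1, Bmp4, Id1 and Id3 took the same order of groups as the fibroblast sum, D2, B6, D2-13B6 and B6-13D2. Relative to B6, the fibroblast sum was 1.61 in D2, then 0.321 in the B6-13D2 line and 0.815 in the D2-13B6 line. On the same scale Grem1 was 1.69, 0.234 and 0.642, Bmp4 1.95, 0.287 and 0.804, and Id1 1.86, 0.314 and 0.55. Id3 was 1.10, 0.295 and 0.494, and its step from B6 to D2 was not called, with overlapping groups. All 16 markers were called higher in D2 than in B6 (29.8% of all genes), all 16 lower in B6-13D2 than in B6 (32.9%), and 15 of 16 lower in D2-13B6 than in D2 (29.7%). The step from B6 to D2-13B6 was not uniform, with 11 markers lower (34.6%), 4 higher (24.5%) and 1 not called. The sum of 12 primitive endoderm markers took that order too, at 1.35 in D2, 0.865 in the D2-13B6 line and 0.474 in the B6-13D2 line relative to B6, but its members did not move as one. Of 11 tested, 6 were called higher and 1 lower in D2 versus B6, 1 higher and 7 lower in B6-13D2 versus B6, and 3 higher and 5 lower in D2-13B6 versus D2. The 2 most abundant, the basement membrane genes Col4a1 and Lamb1, make up most of the sum, while Gata4, a transcription factor of that lineage named after its values were seen, had a log2 fold change of -1.05 in D2 versus B6. Sums of the other lists had other orders: relative to B6, 7 mesoderm markers stood at 1.55 in D2, 1.33 in the D2-13B6 line and 0.489 in the B6-13D2 line, 8 trophoblast markers at 0.716, 0.549 and 1.33, and 7 neuroectoderm markers at 1.15, 0.889 and 0.925. The part of these markers in the results was not tested. D2 replicate 3 had the lowest fibroblast sum of its group and also the lowest Id1, Id3, Id4, Smad6, Smad7, Bmpr1a and Grem1. It did not have the lowest Id2, Bmp4 or Bambi. How many of all genes were lowest in that library was not counted. B6 replicate 1 (13740 CPM) and B6-13D2 replicate 1 (4256 CPM) each had the highest fibroblast sum of their group. Id1 was lowest there, at 22.3 and 7.03 CPM, while Bmp4 was highest, at 22.8 and 6.92 CPM.

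Divided by the fibroblast sum of the same library, a ratio chosen after the values were seen and not tested, levels of some genes became nearly even and others spread out. Per 1000 CPM of fibroblast markers, Bmp4 had 1.60 ± 0.080 (SD, n = 3) in B6, 1.96 ± 0.181 in D2, then 1.43 ± 0.169 in the B6-13D2 line and 1.58 ± 0.064 in the D2-13B6 line, a range of 1.37-fold where its CPM spanned 6.81-fold. Grem1 had 14.6 ± 0.687, 15.3 ± 0.807, 10.7 ± 0.624 and 11.5 ± 0.198, a range of 1.44-fold. Both ranges were narrower than in CPM, and the ratio of Grem1 was still lower in both congenic lines than in the parental strains.

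For Id1 the ratio was 1.73 ± 0.087, 1.99 ± 0.027, 1.69 ± 0.042 and 1.16 ± 0.045, so D2-13B6 stood below the other groups. For Id3 it was 8.54 ± 0.934 in B6, 5.83 ± 0.211 in D2, then 7.83 ± 0.575 in the B6-13D2 line and 5.17 ± 0.048 in the D2-13B6 line, a split by background that its CPM did not show. Smad6, Smad7, Id2, Id4, Bmpr1a and Bambi had a wider range in this ratio than in CPM, 3.33-fold to 6.47-fold. Per 1000 CPM of embryonic stem cell markers, Id2 spanned 1.26-fold and was the gene with the smallest range of the 10.

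**Figure D3:**
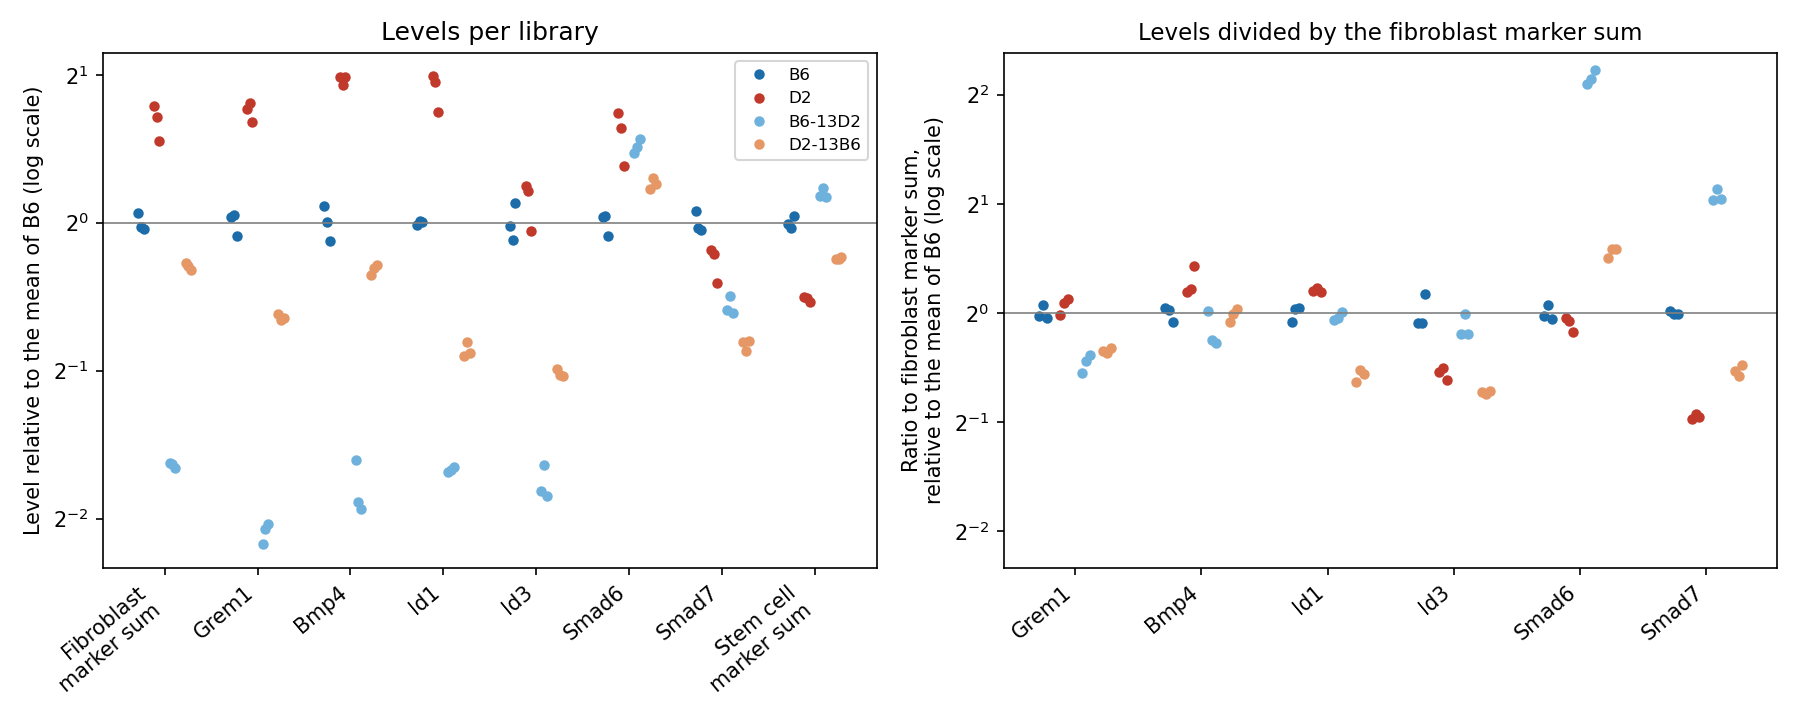
Left, levels per library relative to the B6 mean (log axis) of the fibroblast marker sum, 6 of the genes and the stem cell marker sum; right, the 6 genes divided by the fibroblast sum of the same library, again relative to B6. Grem1, Bmp4 and Id1 have the order of the fibroblast sum on the left, and on the right Smad6 and Smad7 are high in B6-13D2.

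Other genes of the pathway were taken from lists of 108 genes outside the 10, of which 92 were tested. In D2 versus B6, 55 were called higher and 17 lower, where 29.8% of all genes tested were higher and 30.3% lower. In B6-13D2 versus B6, 16 were higher and 57 lower, beside 25.4% and 32.9% of all genes. In D2-13B6 versus D2, 22 were higher and 47 lower, beside 27.6% and 29.7%. The counts of each list that follow are to be read against these same shares. The list medians were 0.28, -0.45 and -0.24, beside 0.01, -0.04 and 0 for all genes. The genes named below had the highest or the lowest log2 fold change in D2 versus B6 among those genes of their list whose mean log2 CPM was 1 or more; genes of lower level could lie beyond them.

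Of 13 tested genes listed as extracellular antagonists, 10 were called higher (29.8% of all genes) and 1 lower (30.3%) in D2 than in B6. In B6-13D2 versus B6 12 were lower (32.9%) and none higher (25.4%), and in D2-13B6 versus D2 11 were lower (29.7%) and none higher (27.6%). The list also holds Bmp1, a protease that cleaves chordin and so releases BMP, which is not an antagonist; it was among the genes higher in D2 and lower in the congenic lines, with log2 fold changes of 0.70, -1.39 and -0.70. Chrdl1, which binds BMPs like chordin, had 4.27 CPM ± 0.139 in B6, 8.78 ± 1.09 in D2, then 1.16 ± 0.074 in the B6-13D2 line and 2.86 ± 0.065 in the D2-13B6 line, and log2 fold changes of 1.03 (SE 0.113), -1.88 (SE 0.146) and -1.61 (SE 0.113) in those 3 comparisons. Chrd, chordin itself, gave -0.18 (not called), -0.65 and -0.57. The list medians were 0.65, -1.39 and -0.71, and these comparisons are the ones in which the fibroblast markers moved the same way, with medians of 0.69, -1.54 and -0.95.

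Of 11 tested ligands, 5 were called higher and 1 lower in D2 than in B6, 2 higher and 6 lower in B6-13D2 than in B6, and 1 higher and 2 lower in D2-13B6 than in D2. Gdf11, a ligand of the activin type, changed by 0.53, -1.02 and -0.74, while Bmp7 went the other way with -0.29, 0.56 and 0.20, the last not called. Among 9 receptors and co-receptors, 7 were higher and 2 lower in D2, 1 was higher and 7 lower in B6-13D2, and 3 were higher and 6 lower in D2-13B6, each versus the same strain as before. Bmpr2, the type II receptor, changed by 0.62, -0.68 and -0.27. Rgma, a BMP co-receptor with divided reads, changed by -0.65, -0.65 and 0.49.

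Smads and Smad cofactors, 10 tested, had 6 higher and 1 lower in D2 versus B6, 8 lower in B6-13D2 versus B6 and 5 lower in D2-13B6 versus D2, with none higher in the congenic comparisons. Runx2, a partner of Smads in bone with divided reads, had 0.73 in D2 versus B6 and gave -1.81 and -1.21 in the congenic comparisons. Yap1, a transcriptional coactivator, had -0.11, then -0.12 and, not called, -0.02. Intracellular inhibitors, 14 tested, were mixed, with 7 higher and 3 lower, then 3 higher and 4 lower, then 4 higher and 9 lower. Ctdspl, a small phosphatase, changed by 0.60, -0.62 and -0.62, and Lemd3, an inner nuclear membrane protein that binds Smads, by -0.21, 0.01 (not called) and 0.17.

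Of 16 tested genes listed as responsive to BMP, 8 were higher and 4 lower in D2 than in B6, 2 higher and 10 lower in B6-13D2 than in B6, and 7 higher and 6 lower in D2-13B6 than in D2. In the last comparison, where Id1 and Id3 were lower, this list was thus split. Cdx2, a trophoblast and caudal homeobox factor, had 1.22 CPM ± 0.227 in B6, 3.55 ± 0.452 in D2, then 0.898 ± 0.242 in the B6-13D2 line and 4.49 ± 0.397 in the D2-13B6 line; it rose by 1.55 in D2 versus B6 and was not called in the congenic comparisons. Gata2 changed by -0.57 in D2 versus B6 and 0.80 in D2-13B6 versus D2, with 0.00 (not called) in between.

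E proteins and related factors, the partners of Id proteins, had 7 genes tested, with 3 higher and 2 lower, 2 higher and 4 lower, and 1 higher and 4 lower in the 3 comparisons. Hes1, a repressor driven by Notch and LIF signals, changed by 0.30, -0.87 and -1.54. Ascl2, a proneural-type factor of trophoblast and stem cells, changed by -0.39, 1.40 and 1.35, so it was higher in both congenic lines. The Activin and Nodal arm, 12 tested, had 9 higher and 3 lower in D2 and was mixed in the congenic comparisons, 6 higher and 6 lower, then 6 higher and 4 lower. Tdgf1, the Nodal co-receptor with divided reads and also a stem cell marker, changed by -0.74, 0.31 and 0.62.

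**Figure D4:**
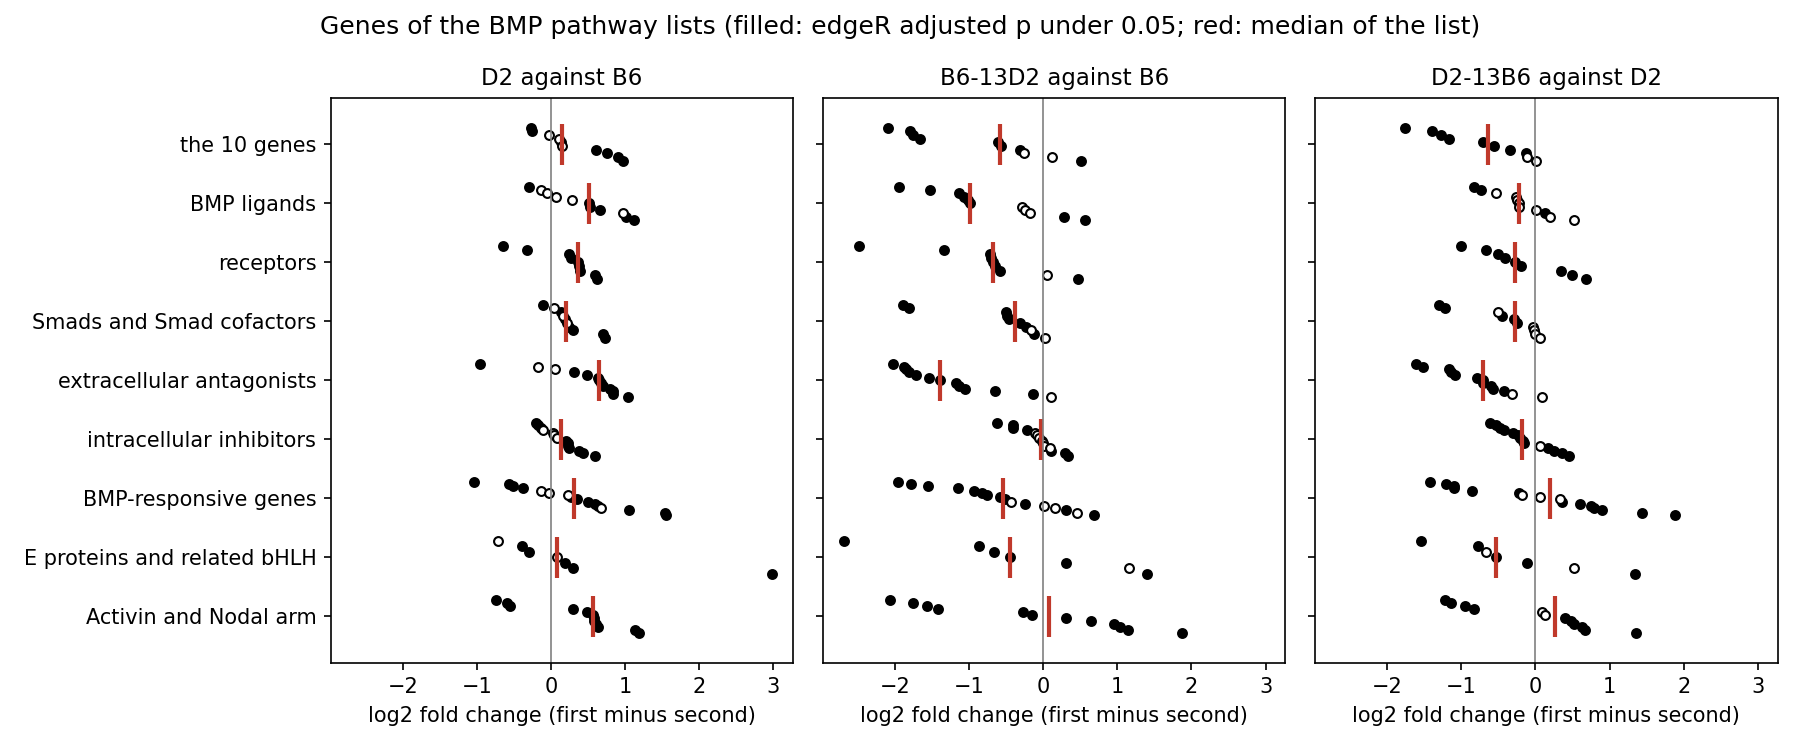
Log2 fold changes of each tested gene of the pathway lists in 3 comparisons, first group minus second; filled points are called (adjusted p under 0.05) and red bars are list medians. Extracellular antagonists have medians of 0.65, -1.39 and -0.71 from left to right.

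By the pattern over the 12 libraries, each gene centred on its mean log2 CPM, the 3 genes nearest to Grem1 of 11416 compared were Nedd9, Htr1b and Cdh11, with root mean square differences of 0.074, 0.074 and 0.090 against a median of 1.08 over all. For Bmp4 they were Fosl1, P4ha3 and Pappa (0.0997 to 0.108), for Id1 Gem, Itga11 and Smoc2 (0.127 to 0.143) and for Id3 Ccn2, Trib1 and Dkk2 (0.143 to 0.154). Smad6 was nearest to Slc1a4, Ttc39c and Grik3 (0.0815 to 0.114) and Smad7 to Tnrc18, Fam107b and Nfatc4 (0.0511 to 0.064). The median over all genes was 1.03 for Bmp4, 0.989 for Id1 and 0.812 for Id3. It was only 0.353 for Smad6 and 0.390 for Smad7.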

How the data were processed

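The deposited table holds expected counts of the authors, named there as EMASE totals, for 43346 Ensembl genes and 12 RNA-seq libraries; they are estimates, so a read that maps to several places can be divided. The submitters' processing notes name Bowtie 1.0.0, edgeR 3.34.1 and mm10 without roles; annotation release and strand setting are not given in the sources used here. GENCODE M21 (GRCm38) gave symbols, positions and exon lengths for 42462 IDs. Each of the 12 columns was used. After rounding, edgeR 4.0.16 in R 4.3.3 fitted 4 group means by quasi-likelihood with TMM (filterByExpr, minimum count 10), and p-values were adjusted by Benjamini-Hochberg over 17148 genes in each of 7 contrasts. The SE is the size of the log2 fold change over the root of F. In counts simulated for D2 versus B6 (16800 genes), edgeR found 75.0% of 100 genes changed 2-fold and 70.0% of 100 changed 1.5-fold, with 6 false calls. Only those 200 genes differed there, evenly raised and lowered, whereas 60.0% of all genes were called in the data. The number of false calls may therefore not carry over to these data. As alternatives, DESeq2 1.42.0, RLE scaling, other filters on low counts (none, or mean CPM from 1), a block on replicate number, fits without the other groups, and fits leaving out 1 library were run. Each pathway list is represented by its highest and lowest gene in D2 versus B6 (mean log2 CPM from 1), except that 1 such gene is not reported here; patterns were compared among genes with a mean log2 CPM from 2. Members, lists and tests were chosen with earlier results of these data known. Chi-square per degree of freedom between libraries of a group was 1.96 to 8.24, more than sampling noise.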

Additional observations from a re-analysis of the deposited data

Results flagged for a closer look

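In 8 of the 10 genes, the difference between lines with the D2 and with the B6 segment of chromosome 13 was unlike on the 2 backgrounds. This was called by edgeR's test of that difference itself. The test equals both congenic lines minus both parental strains. It is therefore large where a gene was lower in both congenic lines than in the parental strain of their background, as for 6 of these genes. The same test called 64.5% of all genes tested, so the count of 8 is not particular to these genes. On the log2 scale, it was -3.49 for Grem1 (SE 0.066), -3.43 for Id1 (SE 0.096), -3.08 for Bmp4 (SE 0.105) and -2.92 for Id3 (SE 0.107). Smaller differences were found for Smad7 with -1.13 (SE 0.075), Id4 with -0.97 (SE 0.162), Bambi with -0.72 (SE 0.103) and Bmpr1a with -0.44 (SE 0.053). The edgeR adjusted p ranged from 2.27e-17 for Grem1 to 4.67e-05 for Id4. The summed fibroblast markers were lower in both congenic lines too, and all 16 were called lower by this difference (33.4% of all genes), with a median of -2.49. A batch shared by the congenic libraries and the difference between congenic and parental lines cannot be told apart. With a single line described per strain, an effect of the segment allele and any other difference between lines cannot be told apart either.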

How the results depend on the processing

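Of 890 values of single genes under the alternatives, 860 kept their direction and side of the threshold. Changed signs were all of genes not called. Bambi in D2 versus B6 (-0.03) became 0.0203 under RLE scaling, 0.0205 by DESeq2 and 0.0178 when genes under a mean CPM of 1 were dropped, and ranged from -0.0823 to 0.0033 when single libraries were left out. Id2 in D2-13B6 versus D2 (0.01) became -0.0333 when genes under a mean CPM of 1 were dropped and ranged from -0.0273 to 0.0443 without single libraries, and Bmpr1a in D2-13B6 versus B6 from -0.0159 to 0.0297; the cause was not tested. The number of the 10 genes called ranged over the alternatives from 7 to 8 in D2 versus B6, 8 to 9 in B6-13D2 versus B6, 8 to 10 in B6-13D2 versus D2, 7 to 9 in D2-13B6 versus B6, 9 to 10 between the congenic lines and 8 to 9 for congenic lines minus parental strains, and stayed 8 in D2-13B6 versus D2. RLE size factors moved the median of all genes by at most 0.065. With the replicate number as a block, the same 7, 8 and 8 counts were found and no call of the 10 genes changed; same-numbered libraries had a mean correlation of deviations of -0.011 over 18 pairs and 4 of 12 libraries correlated best with their own number, so the numbers showed no pairing. Depth limits the precision of low genes: libraries held 174 to 334 counts of Id4, and in B6-13D2 146 to 200 of Bmp4 and 191 to 211 of Id1.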
